A study of Mus musculus with 10 samples.

Results

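Interferon-stimulated genes are the genes that cells switch on when interferons bind their receptors. The set described here was given as 42 gene symbols, and 37 of them were represented by a probe set that carried no other symbol, out of 17097 genes measured. Bst2, Oas1a, Isg15, Tap1 and Ifi44 were not matched and were not analysed here. The 37 genes were described in epididymal white adipose tissue, the fat pad beside the testis, of mice with and without parts of the inflammasome, the complex in which ASC and caspase-1 activate interleukin-1beta.

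Type I interferons bind a receptor built from IFNAR1 and IFNAR2, and Janus kinases then phosphorylate STAT2, which joins IRF9 in a complex that binds interferon-stimulated response elements in promoters. Interferon gamma acts through gamma-activated sites, and drives guanylate-binding proteins, immunity-related GTPases and the immunoproteasome in particular. In adipose tissue, adipocytes, endothelial cells and resident immune cells can all carry such a response.

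Male mice of 3 genotypes, all on a C57/Bl6 background and 8 to 12 weeks old at the start, ate a high fat diet with 45 energy% of fat for 16 weeks. The groups were wild-type mice (WT, n = 4), ASC-/- mice, labelled null for the gene of the inflammasome adaptor (Pycard, n = 3), and Casp1-/- mice, labelled null for the protease caspase-1 (n = 3). The labels name no cell type to which a deletion was limited, and nothing in them says whether the mice were littermates. Total RNA of each mouse was labelled and hybridised to its own Affymetrix HT_MG-430 PM array, and all values are log2 signals. All mice described here ate this diet, so nothing below says how the diet itself affected these genes.

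Pycard lay at 3.40 ± 0.27 (SD, n = 3) in ASC-/- against 9.82 ± 0.62 (SD, n = 4) in WT, and Casp1 at 4.85 ± 0.14 (SD, n = 3) in Casp1-/- against 9.32 ± 0.55 (SD, n = 4), so both labels held. Adipoq, the adipocyte hormone adiponectin, read 13.23 to 13.73 on every array. The means of 24 poly-A spike-in controls split the arrays into a high set, the Casp1-/- arrays (7.51 to 8.07) and WT replicate 1 (7.80), and a low set, the other WT arrays (5.76 to 6.50) and the ASC-/- arrays (6.21 to 6.30). The labels name no batch. Fitting this split as a block leaves WT replicate 1 as the single reference array for Casp1-/-. Markers of macrophages, 12 genes, averaged 8.37 to 8.60 on the Casp1-/- arrays, 9.06 to 10.41 on WT and 9.69 to 10.09 on ASC-/-. Epididymis markers were high on Casp1-/- replicate 2 (6.22) and on WT replicates 1 and 2 (5.06 each), and 3.37 to 3.76 elsewhere. In whole tissue, fewer cells of a type and less RNA per cell cannot be told apart.

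Of the 37 genes, 32 had a higher mean than each of the 23 control probe sets that match no mouse transcript, whose means reached 4.82. Mx1, Mx2, Oas3, Eif2ak2 and Herc6 did not, and the size of a difference in these 5 is uncertain. Means over all arrays ran from 3.45 for Oas3 to 13.29 for Ifi27l2a, but they belong to different probe sets and are not an order of transcript abundance.

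Promoter sequences of 32 of the 42 genes were in the table used, from RefSeq on GRCm38.p6, each window running from 250 bases before the transcription start to 50 after it. The sequences of Ifit3, Gbp2, Gbp3, Gbp7 and Oasl2 are printed as examples of windows with and without the core of the response element. Ifit2, Xaf1, Irf9 and Psmb8, given array by array below, had windows without the core, which are not printed. The core searched was a pair of GAAA repeats with any 2 bases between them, on both strands, and capitals mark each match or its reverse complement. Matches that overlap were counted apart.
The windows are Ifit3 at chr19:34583279-34583578, Gbp2 at chr3:142620413-142620712, Gbp3 at chr3:142559794-142560093, Gbp7 at chr3:142530086-142530385 and Oasl2 at chr5:114896684-114896983, all on the plus strand.
Ifit3: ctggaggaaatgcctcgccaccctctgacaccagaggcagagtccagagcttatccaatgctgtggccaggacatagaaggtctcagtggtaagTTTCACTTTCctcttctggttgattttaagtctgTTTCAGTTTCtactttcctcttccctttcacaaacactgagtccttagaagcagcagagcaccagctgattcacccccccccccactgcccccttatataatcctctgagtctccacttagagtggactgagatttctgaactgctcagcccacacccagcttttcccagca
Gbp2: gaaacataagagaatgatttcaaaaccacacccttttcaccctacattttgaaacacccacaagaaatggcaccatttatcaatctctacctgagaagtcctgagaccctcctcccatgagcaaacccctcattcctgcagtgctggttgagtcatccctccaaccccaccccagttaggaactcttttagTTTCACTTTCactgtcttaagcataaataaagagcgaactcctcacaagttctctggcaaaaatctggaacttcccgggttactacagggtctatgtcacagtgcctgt
Gbp3: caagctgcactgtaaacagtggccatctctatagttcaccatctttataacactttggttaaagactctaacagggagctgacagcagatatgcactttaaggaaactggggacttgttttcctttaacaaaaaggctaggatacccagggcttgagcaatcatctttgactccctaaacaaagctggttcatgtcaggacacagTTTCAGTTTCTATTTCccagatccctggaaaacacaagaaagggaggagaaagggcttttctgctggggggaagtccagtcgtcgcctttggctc
Gbp7: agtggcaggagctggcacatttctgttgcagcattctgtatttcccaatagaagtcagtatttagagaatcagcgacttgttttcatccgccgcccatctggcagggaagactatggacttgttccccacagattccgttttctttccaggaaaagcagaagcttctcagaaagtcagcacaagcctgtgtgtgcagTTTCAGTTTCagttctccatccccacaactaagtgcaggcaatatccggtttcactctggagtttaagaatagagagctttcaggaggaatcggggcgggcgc
Oasl2: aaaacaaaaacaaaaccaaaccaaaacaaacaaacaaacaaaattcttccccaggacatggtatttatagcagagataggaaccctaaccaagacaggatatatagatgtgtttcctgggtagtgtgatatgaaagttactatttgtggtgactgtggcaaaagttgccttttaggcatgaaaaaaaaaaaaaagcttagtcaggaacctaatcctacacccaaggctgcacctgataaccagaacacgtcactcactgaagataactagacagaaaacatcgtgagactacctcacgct
Ifit3 held 2 separate cores, of which the one farther from the start ended 146 bases before it. The 3 guanylate-binding protein genes, neighbours on chromosome 3, each had a window with the core close to the start. The core ended 49 bases before the start in Gbp2, 35 in Gbp3 for the first of 2 overlapping cores and 43 in Gbp7. Another window of Gbp3, at chr3:142560106-142560405, did not hold the core, and neither did the Oasl2 window. In the counts below, a gene with several windows held a motif if any of its windows did.

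The core occurred in 13 of the 27 measured genes that had a window (48.1%), against 488 of 13605 genes tested on the arrays (3.59%) and 3.44% of all 32851 windows in the table. All 5 GTPase genes of the GBP and IRG families with a window held it (Gbp2, Gbp3, Gbp7, Igtp and Irgm1), as did all 3 sensor genes with one (Ifih1, Ddx58 and Eif2ak2). Of the IFIT family and its neighbours in role it was 3 of 6 (Ifit1, Ifit3 and Rsad2), of the OAS family 1 of 3 (Oas3), and of the transcription factors 1 of 4 (Stat2). The gamma-activated site TTCNNNGAA, searched on both strands, was in 7 of 27 (25.9%) against 8.76% of the genes tested. Among 37 interferon-induced genes outside the set, 15 held the response element core (40.5%) and 5 the gamma-activated site (13.5%). A match describes the letters only.

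In ASC-/- fat nearly all of the interferon-stimulated genes read slightly lower than in WT, but none passed the test. The difference from WT was below 0 for 36 of 37 genes, where 48.3% of all genes were below 0. The median difference was -0.17, a 1.12-fold lower signal, against 0.0050 over all genes. Lgals3bp, a secreted glycoprotein, was the exception at 0.051. With limma and Benjamini-Hochberg adjustment over all genes, 0 of 37 were called in either direction, where 0.0175% of all genes were called higher and 0.0175% lower. Without adjustment, 7 had a p under 0.05 and were lower (1.03% of all genes), and 0 were higher (0.971%). The arrays of both groups did not overlap for 9 genes, all lower in ASC-/- (1.86% of all genes, against 1.33% that were higher without overlap). They were Ifit2, Samd9l, Xaf1, Oas2, Ifih1, Irf1, Gbp3, Psmb9 and Rtp4. The genes vary partly together between mice, so 36 of 37 is not 36 separate observations, and 31 to 36 were below 0 when each array was left out in turn. With the spike-in split as a block, which leaves WT replicates 2 to 4 as the reference, 33 of 37 were below 0, with a median of -0.17. When the 3 arrays with high epididymis markers were left out, 28 of 37 were below 0 (48.7% of all genes). Most markers of T and NK cells were also below 0, with no call. The mean of 13 such genes ran from 4.04 to 4.16 in ASC-/- and from 4.22 to 4.49 in WT, both within the range of the control probe sets. Of the 13, 10 were below 0, with a median of -0.19, and limma called 0 (4 lower at an unadjusted p under 0.05). Gzma (mean 5.26), alone among them brighter than the control probe sets, read 5.24 in ASC-/- and 5.18 in WT. Markers of B cells (5 of 7), plasmacytoid dendritic cells (4 of 5) and epididymis (6 of 6) were also mostly below 0. Those of macrophages (3 of 12 below), adipocytes (1 of 6) and endothelium (1 of 6) were mostly above it. The part of any of these in the lower values was not tested.

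**Figure D1:**
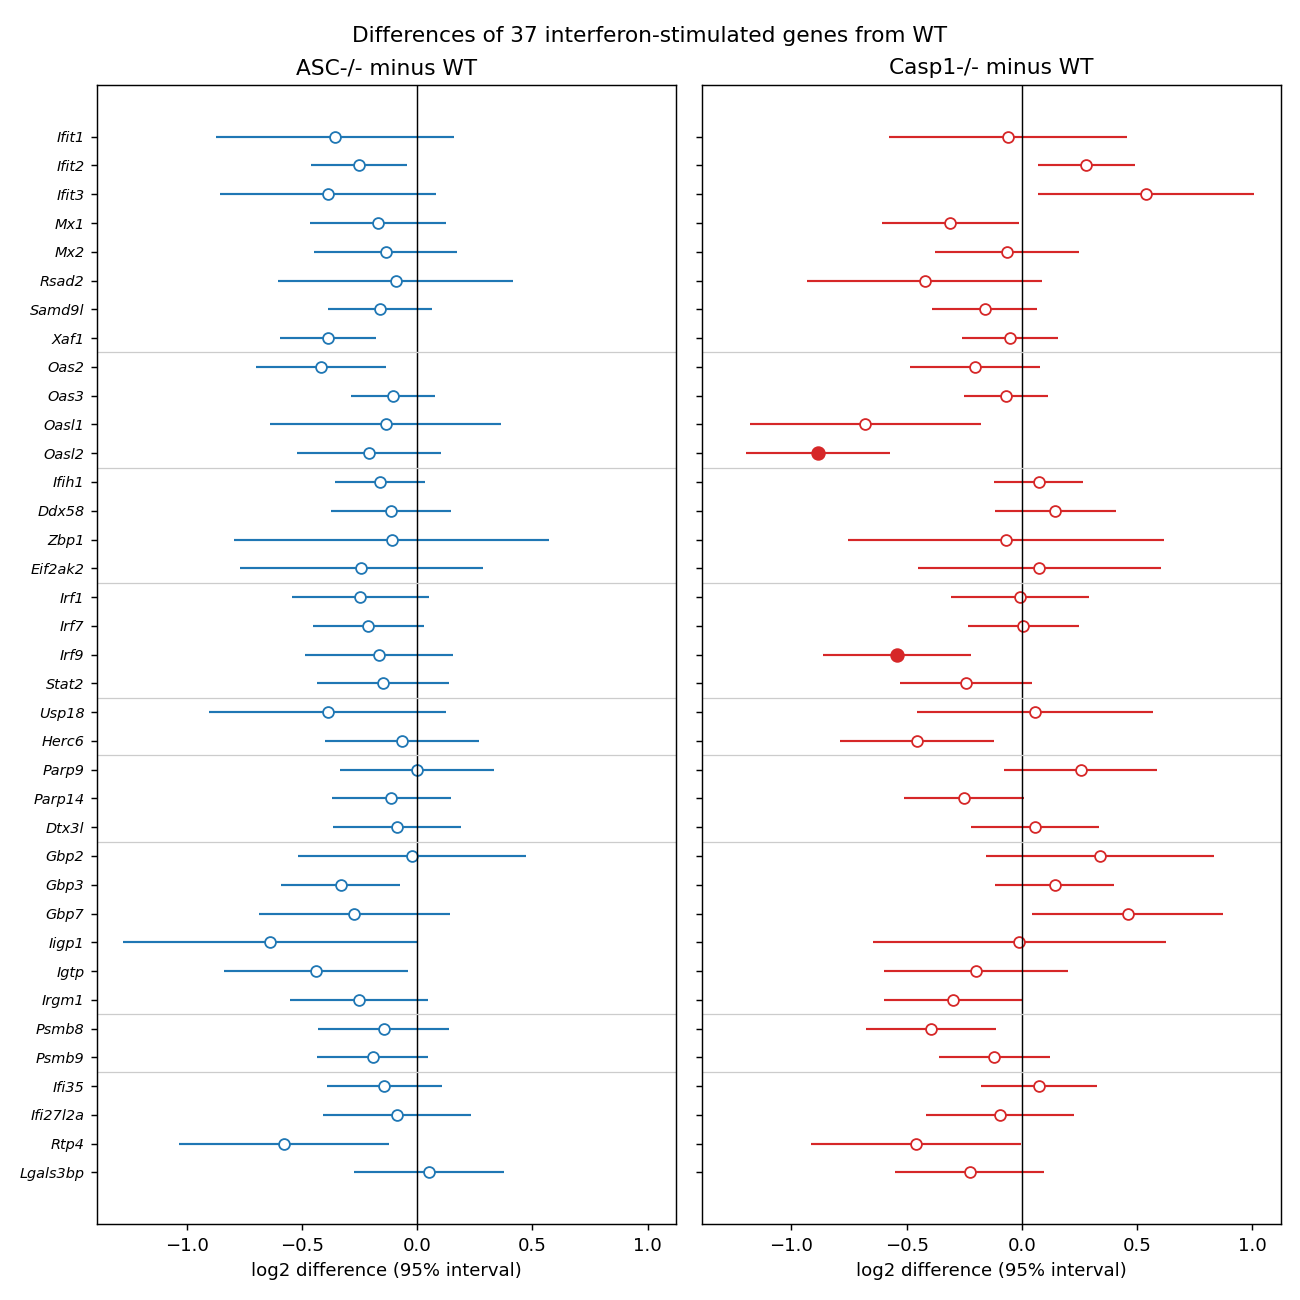
Log2 difference from WT (horizontal axis) of each of the 37 genes, grouped by role, for ASC-/- on the left and Casp1-/- on the right. Points are limma estimates, lines are 95% intervals that are not adjusted for the number of genes, and filled points mark genes with an adjusted p under 0.05: none for ASC-/-, and Oasl2 and Irf9 for Casp1-/-. In the left panel 36 of 37 points lie left of 0.

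In Casp1-/- fat the genes lay on both sides of WT. Of the set, 24 of 37 were below 0 and 13 above, where 42.7% of all genes were below 0, and the median was -0.067 against 0.041 over all genes. Oasl2, an oligoadenylate synthetase-like antiviral protein, and Irf9, the DNA-binding partner of STAT2, fell. These 2 of 37 compare with 3.86% of all genes called lower, and 0 of 37 were called higher, where 4.31% of all genes were. Before adjustment, 7 genes were lower with a p under 0.05 (11.3% of all genes) and 3 higher (16.3%). Arrays did not overlap for Oasl2, Irf9, Psmb8 and Oasl1, which were lower (9.6% of all genes), and for Ifit2, which was higher (15.1%). Read against those shares, the count called lower was near the background and the counts of higher genes were below it. With the spike-in split as a block, 29 of 37 were below 0 and 8 above, with a median of -0.22, and limma called 0 (with 7 lower and 0 higher where p was under 0.05 before adjustment). The WT arrays serve both comparisons, so the values of the null genotypes against WT are not independent.

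ASC-/- and Casp1-/- fat were also compared directly. Oasl2 was higher in ASC-/-, and Ifit2, Ifit3 and Gbp3 were lower. That is 1 of 37 called higher, where 3.85% of all genes were, and 3 of 37 called lower, where 3.54% were. Each of the 4 calls was lost without any single one of the ASC-/- or Casp1-/- arrays, that of Ifit3 also without WT replicate 2, and that of Gbp3 also without WT replicate 2 or 4. The highest adjusted p (limma) over the arrays left out was 0.0831 for Ifit2, 0.144 for Ifit3, 0.113 for Oasl2 and 0.179 for Gbp3. Over the whole set, the difference was below 0 for 25 of 37 genes (57.3% of all genes), with a median of -0.14 against -0.042 over all genes. Before adjustment, 4 genes were higher with a p under 0.05 (11.1% of all genes) and 6 lower (14.9%). Arrays did not overlap for 12 genes that were lower in ASC-/- (23.1% of all genes) and 3 that were higher (17.3%). With the spike-in split as a block, 15 of 37 were below 0 and 22 above, with a median of 0.041, and limma called 0 (with 2 higher and 1 lower where p was under 0.05 before adjustment). That block compares the null genotypes only through WT arrays of different sets.

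**Figure D2:**
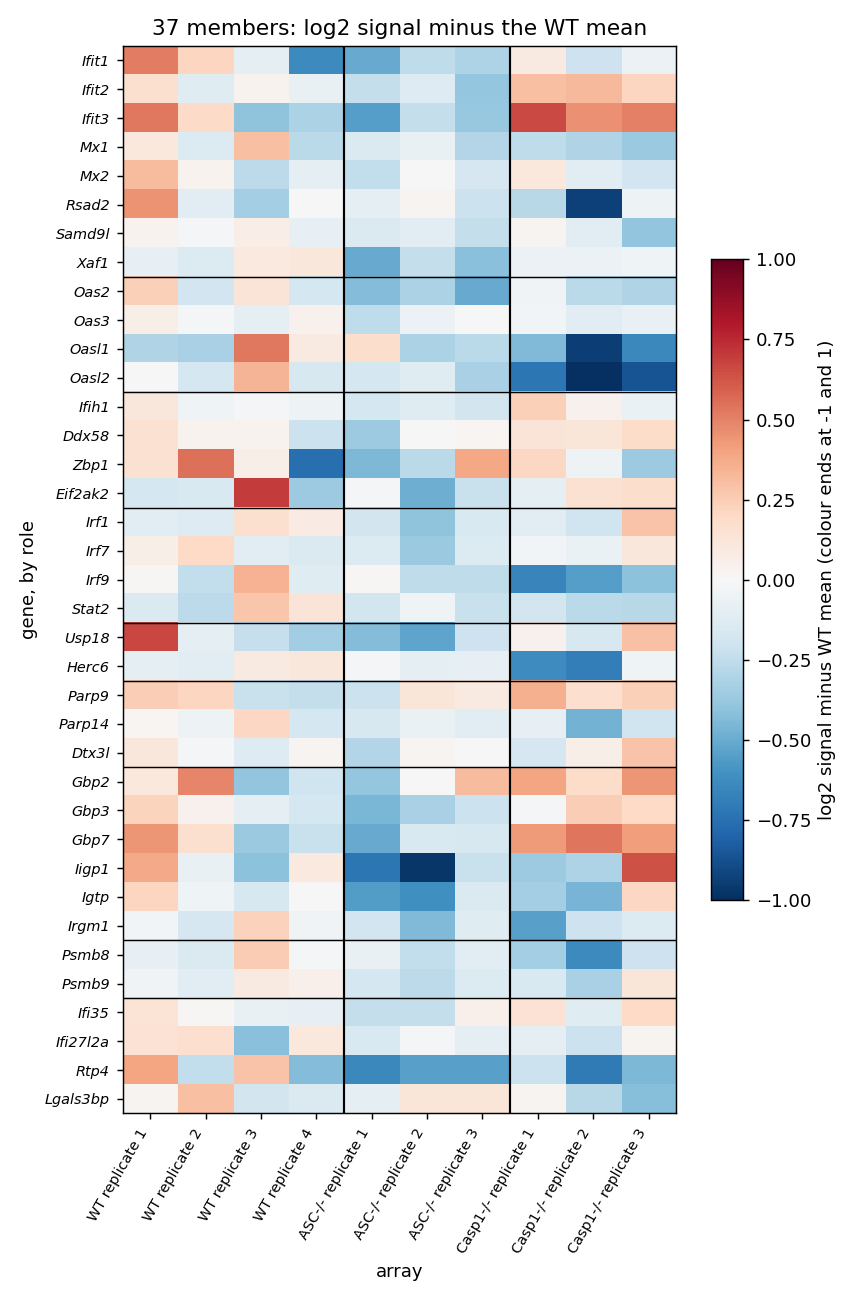
Log2 signal minus the WT mean of the gene for 37 genes (rows, grouped by role) on the 10 arrays (columns), with colour from blue (lower) through white (0) to red (higher) and ending at -1 and 1. The 3 ASC-/- columns are mostly blue, and the Casp1-/- columns are blue for Oasl1 and Oasl2 and red for Ifit2, Ifit3 and Gbp7.

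Averaged over the 37 genes, the WT arrays read 7.65, 7.50, 7.52 and 7.39 in order of replicate number. The ASC-/- arrays read 7.25, 7.30 and 7.36, and the Casp1-/- arrays 7.44, 7.31 and 7.49. All ASC-/- arrays thus lay below all WT arrays, though the nearest pair was close, while the Casp1-/- arrays overlapped both groups. The group means were 7.52 ± 0.11 (SD, n = 4) in WT, 7.30 ± 0.055 (SD, n = 3) in ASC-/- and 7.41 ± 0.091 (SD, n = 3) in Casp1-/-. Restricted to the 32 brighter genes they were 8.03, 7.81 and 7.94. No gene of the 37 had its highest value of all 10 arrays on an ASC-/- array, where 6.71%, 4.52% and 4.52% of all genes had it on replicates 1, 2 and 3. WT replicate 3 held the highest value of 10 genes and WT replicate 1 that of 8, where 19.7% and 11.1% of all genes had theirs on these arrays.

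**Figure D3:**
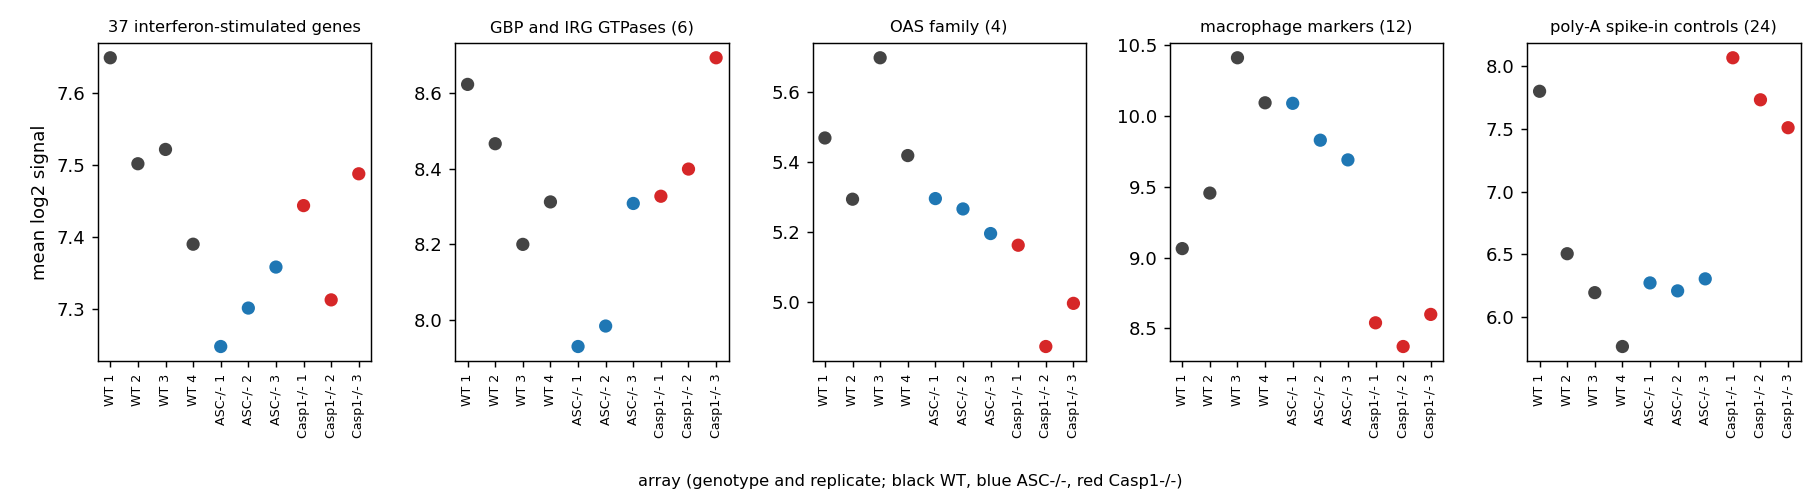
Mean log2 signal on each array (points, black WT, blue ASC-/-, red Casp1-/-) of the 37 genes, the GBP and IRG GTPases, the OAS family, 12 macrophage markers and 24 poly-A spike-in controls, each panel with its own vertical scale. The ASC-/- arrays lie at 7.25 to 7.36 in the first panel, and the Casp1-/- arrays are lowest in the OAS and macrophage panels.

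The IFIT proteins bind foreign RNA and block its translation. Over them and the other antiviral effectors (Ifit1, Ifit2, Ifit3, Mx1, Mx2, Rsad2, Samd9l and Xaf1) the median difference was -0.21 in ASC-/- and -0.062 in Casp1-/-, with 8 of 8 and 6 of 8 below 0. Ifit3 read 8.32, 7.99, 7.40 and 7.48 on the WT arrays, 7.24, 7.56 and 7.42 on the ASC-/- arrays, and 8.46, 8.25 and 8.30 on the Casp1-/- arrays. WT replicate 1 lay among the Casp1-/- arrays, WT replicates 3 and 4 among the ASC-/- arrays, and WT replicate 2 between. The difference between the 3' and 5' probe sets of actin, a sign of RNA quality, ran alongside: 1.05, 0.91, 0.53 and 0.46 for WT replicates 1 to 4, 0.54 to 0.67 for ASC-/- and 0.82 to 0.98 for Casp1-/-. Its part in this or any other difference described here was not tested. Ifit3 differed by -0.93 ± 0.22 (SE) between ASC-/- and Casp1-/-, a 1.90-fold lower signal in ASC-/- (limma, adjusted p = 0.0385). Against WT it was 0.54 ± 0.21 (SE, adjusted p = 0.133) in Casp1-/- and -0.39 ± 0.21 (SE, adjusted p = 1.00) in ASC-/-. Without WT replicate 1, the WT array in the high spike-in set, the Casp1-/- value was 0.72 and passed (limma, adjusted p = 0.0209), and without the 3 arrays high in epididymis markers it was 0.94 (adjusted p = 0.00921). With the block, Ifit3 differed by -0.23 between the null genotypes (limma, adjusted p = 0.898) and by 0.013 between Casp1-/- and WT (adjusted p = 0.993).

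Ifit2 read 7.56, 7.28, 7.44 and 7.33 in WT, 7.16, 7.27 and 7.01 in ASC-/-, and 7.70, 7.72 and 7.62 in Casp1-/-. The groups formed 3 ranges without overlap, with WT in the middle. The difference between ASC-/- and Casp1-/- was -0.53 ± 0.10 (SE; limma, adjusted p = 0.0196), and -0.32 with the block (adjusted p = 0.621). Against WT it was 0.28 ± 0.093 (SE, adjusted p = 0.0921) in Casp1-/- and -0.25 ± 0.093 (SE, adjusted p = 1.00) in ASC-/-. With the block the Casp1-/- value was 0.12 (limma, adjusted p = 0.793). Without WT replicate 1, Ifit2 passed in Casp1-/- at 0.33 (limma, adjusted p = 0.0386).

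Xaf1, an interferon-induced partner and antagonist of the apoptosis inhibitor XIAP, had the smallest unadjusted p of the 37 genes in ASC-/-. It read 8.25, 8.20, 8.42 and 8.45 in WT, 7.82, 8.09 and 7.91 in ASC-/-, and 8.27, 8.27 and 8.29 in Casp1-/-. Each ASC-/- array lay below every other array. The difference from WT was -0.39 ± 0.093 (SE; limma, unadjusted p = 0.00222, adjusted p = 1.00) in ASC-/- and -0.052 in Casp1-/-, which was 0.028 with the block and 0.040 as a mean over its probe sets. Rsad2, the antiviral enzyme viperin, was -0.093 in ASC-/- and -0.42 in Casp1-/-, and 0.057 and -0.87 with the block.

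The OAS family is known for enzymes that make oligoadenylates, which activate RNase L, while mouse OASL1 lacks that activity and limits translation of Irf7. All 4 measured were below 0 in both null genotypes, with medians of -0.17 in ASC-/- and -0.44 in Casp1-/-. Oasl2 read 7.08, 6.90, 7.42 and 6.92 in WT, 6.90, 6.95 and 6.75 in ASC-/-, and 6.35, 6.01 and 6.21 in Casp1-/-. The Casp1-/- arrays lay apart below all others, and the ASC-/- arrays lay within or just below the WT range. Oasl2 fell by 0.88 ± 0.14 (SE) in Casp1-/- against WT, 1.85-fold (limma, adjusted p = 0.0120), and was 0.67 ± 0.15 (SE) higher in ASC-/- than in Casp1-/- (adjusted p = 0.0295). With the block these were -0.88 (limma, adjusted p = 0.136) and 0.67 (adjusted p = 0.497), so the size held while the call did not. Without Casp1-/- replicate 2 the value against WT was -0.79 (limma, adjusted p = 0.0632). Oas2 read 5.94, 5.51, 5.83 and 5.52 in WT, 5.26, 5.38 and 5.20 in ASC-/-, and 5.66, 5.43 and 5.39 in Casp1-/-. It was lowest on the ASC-/- arrays, -0.42 ± 0.13 (SE) from WT (limma, unadjusted p = 0.00822, adjusted p = 1.00), with the Casp1-/- arrays between and partly within the WT range. Oasl1 differed by -0.68 (adjusted p = 0.0896) in Casp1-/- and -0.14 in ASC-/-.

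**Figure D4:**
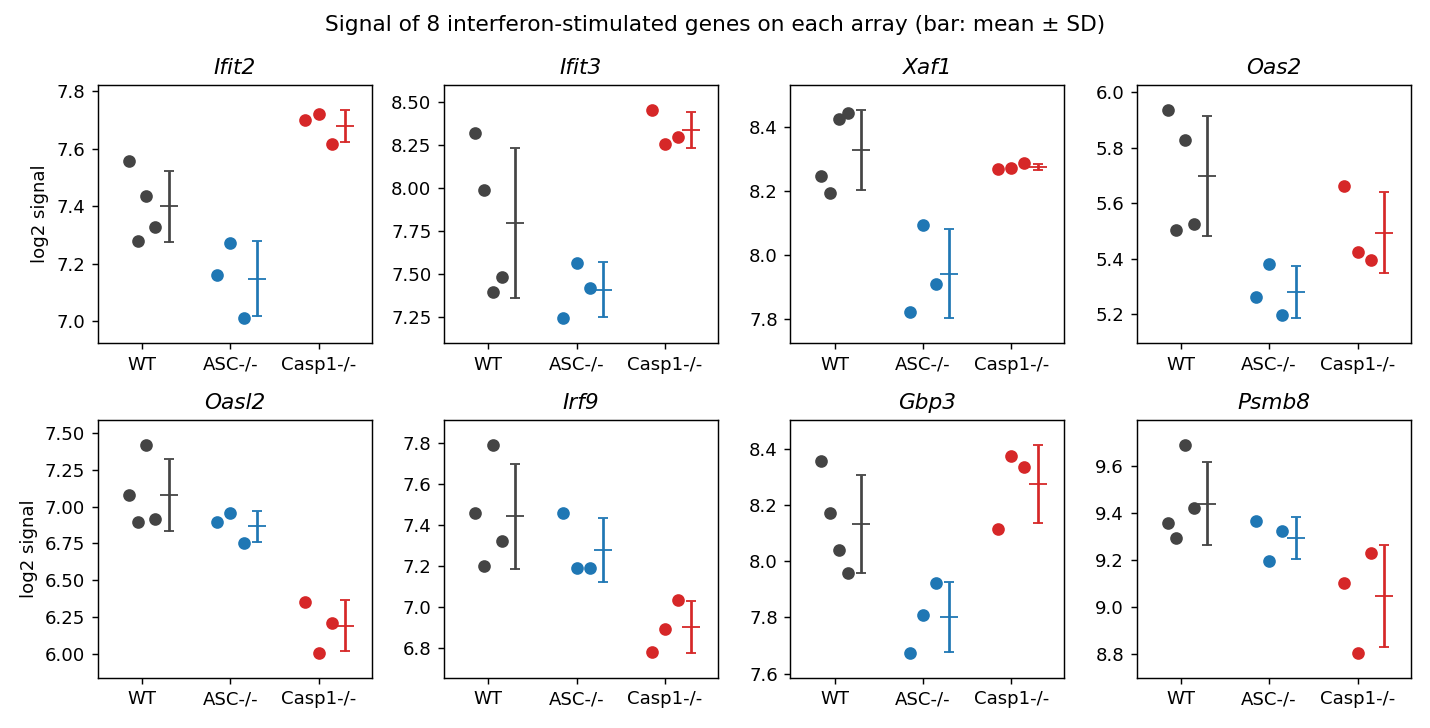
Log2 signal on each array (points) of Ifit2, Ifit3, Xaf1, Oas2, Oasl2, Irf9, Gbp3 and Psmb8 in WT, ASC-/- and Casp1-/-, with the mean and SD of each group beside the points and a separate vertical scale in each panel. Oasl2 and Irf9 are lowest in Casp1-/-, and Xaf1 and Gbp3 are lowest in ASC-/-.

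IRF9 and STAT2 carry the type I signal to DNA, and IRF1 and IRF7 are factors that interferons induce. Irf9 read 7.46, 7.20, 7.79 and 7.32 in WT, 7.46, 7.19 and 7.19 in ASC-/-, and 6.78, 6.89 and 7.03 in Casp1-/-. The Casp1-/- arrays lay below all others, while ASC-/- and WT overlapped. Irf9 fell by 0.54 ± 0.14 (SE) in Casp1-/- against WT (limma, adjusted p = 0.0497), at the edge of the threshold. Of the 10 fits that left out 1 array, it passed only in the one without WT replicate 2 (adjusted p = 0.0381, with 0.151 as the highest of the 10), and with the block it was -0.56 (limma, adjusted p = 0.374). Stat2 differed by -0.15 in ASC-/- and -0.24 in Casp1-/-, Irf1 by -0.25 and -0.0072, and Irf7 by -0.21 and 0.0069. Irf7 lies on chromosome 7 with Pycard, 150 genes away in the GRCm38.p6 gene order.

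Guanylate-binding proteins and immunity-related GTPases attack the vacuoles and membranes of intracellular microbes. As a group they had the lowest median in ASC-/-, -0.30, with 6 of 6 below 0, against 0.066 in Casp1-/- with 3 of 6 below. Gbp3 read 8.36, 8.17, 8.04 and 7.96 in WT, 7.67, 7.81 and 7.92 in ASC-/-, and 8.12, 8.37 and 8.34 in Casp1-/-. The ASC-/- arrays lay below all others, with the highest of them close to WT replicate 4, and the Casp1-/- arrays lay within the WT range or just above it. Gbp3 differed by -0.47 ± 0.12 (SE) between ASC-/- and Casp1-/- (limma, adjusted p = 0.0488) and by -0.33 ± 0.11 (SE, adjusted p = 1.00) between ASC-/- and WT. With the block the first was -0.18 (limma, adjusted p = 0.870), and Gbp3 in Casp1-/- against WT turned from 0.14 to -0.081. Gbp7 differed by -0.73 (limma, adjusted p = 0.0545) between the null genotypes, at 8.24 ± 0.37 (SD, n = 4) in WT, 7.97 ± 0.20 (SD, n = 3) in ASC-/- and 8.70 ± 0.068 (SD, n = 3) in Casp1-/-. Without WT replicate 1, the WT array in the high spike-in set, Gbp7 passed in both this comparison and Casp1-/- against WT. The latter was 0.61 (limma, adjusted p = 0.0296). It also passed between the null genotypes without WT replicate 3 (limma, adjusted p = 0.0216). With the block, Gbp7 differed by only 0.021 between Casp1-/- and WT and by -0.15 between the null genotypes. Gbp7 read 8.68 on WT replicate 1, against 8.65 to 8.78 in Casp1-/-. The IRG genes were lower in ASC-/- as well, with no call. Iigp1 and Igtp differed from WT by -0.64 and -0.44 in ASC-/- and by -0.011 and -0.20 in Casp1-/-. Irgm1 was -0.25 and -0.30, and Gbp2 was -0.023 and 0.34.

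PSMB8 and PSMB9 are immunoproteasome subunits that shape peptides for MHC class I. Psmb8 read 9.36, 9.29, 9.69 and 9.42 in WT, 9.36, 9.19 and 9.32 in ASC-/-, and 9.10, 8.81 and 9.23 in Casp1-/-. All 3 Casp1-/- arrays lay below the WT arrays, while ASC-/- overlapped WT. The difference in Casp1-/- was -0.39 ± 0.13 (SE; limma, adjusted p = 0.0830), and in ASC-/- it was -0.15. Psmb9 was -0.19 in ASC-/- and -0.12 in Casp1-/-.

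The sensors Ifih1 (MDA5), Ddx58 (RIG-I) and Zbp1 and the kinase Eif2ak2 (PKR), which recognise foreign nucleic acid, had medians of -0.14 in ASC-/- and 0.075 in Casp1-/-, with 4 of 4 and 1 of 4 below 0. For Ddx58 a second probe set opposed the one used in Casp1-/-, at -0.13 against 0.15. The ISG15 genes were also lower in ASC-/-, with no call. Usp18, which removes ISG15 from proteins and dampens the type I receptor, was -0.39 in ASC-/- and 0.058 in Casp1-/-, and -0.61 in Casp1-/- with the block. Herc6, the mouse ISG15 ligase, lay near background, with -0.065 and -0.45. It passed without Casp1-/- replicate 3, at -0.66 in Casp1-/- against WT (limma, adjusted p = 0.0314) and 0.60 between the null genotypes (adjusted p = 0.0345). Parp9 and its partner Dtx3l differed by -0.00087 and -0.087 in ASC-/- and by 0.26 and 0.057 in Casp1-/-, and Parp14 by -0.11 and -0.25. The PARP group thus had medians of -0.087 in ASC-/- and 0.057 in Casp1-/-. Without the 3 arrays high in epididymis markers, Parp9 passed in Casp1-/- against WT at 0.53 (limma, adjusted p = 0.0407). With the block that Parp9 value was 0.0093. The ASC-/- arrays of Parp9 lay below the Casp1-/- arrays without overlap, with no call. Rtp4, a receptor transporter protein, was -0.58 in ASC-/- without overlap between arrays and -0.46 in Casp1-/-, or -0.85 with the block. Ifi35 was -0.14 and 0.075, and Ifi27l2a -0.089 and -0.094. None of these was called with all 10 arrays.

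The genes were partly correlated between mice of a genotype. After the genotype means were removed, the median Pearson r over the 666 pairs and 10 arrays was 0.17, and 61.0% of pairs were positive, against a median of 0.0 and 50.0% over all pairs of genes. All pairs share the same 10 arrays, so these are descriptions. The median was 0.42 over the 15 pairs of GBP and IRG GTPases and 0.31 over the 28 pairs of the IFIT family and other effectors, while the single pair of Psmb8 and Psmb9 gave 0.86. Iigp1 and Igtp followed each other most closely (0.97), then Irf1 and Psmb9 (0.95), Ifit3 and Gbp7 (0.94) and Ifit3 and Parp9 (0.93). The Psmb9 values rest on its brightest probe set. Another Psmb9 probe set, also brighter than the control probe sets (mean 7.53), followed it only at r = 0.25, genotype means not removed. The set did not move as one. Oasl1 and Gbp7 ran opposite (-0.88), as did Xaf1 and Irf7 (-0.88) and Irf7 and Stat2 (-0.85).

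**Figure D5:**
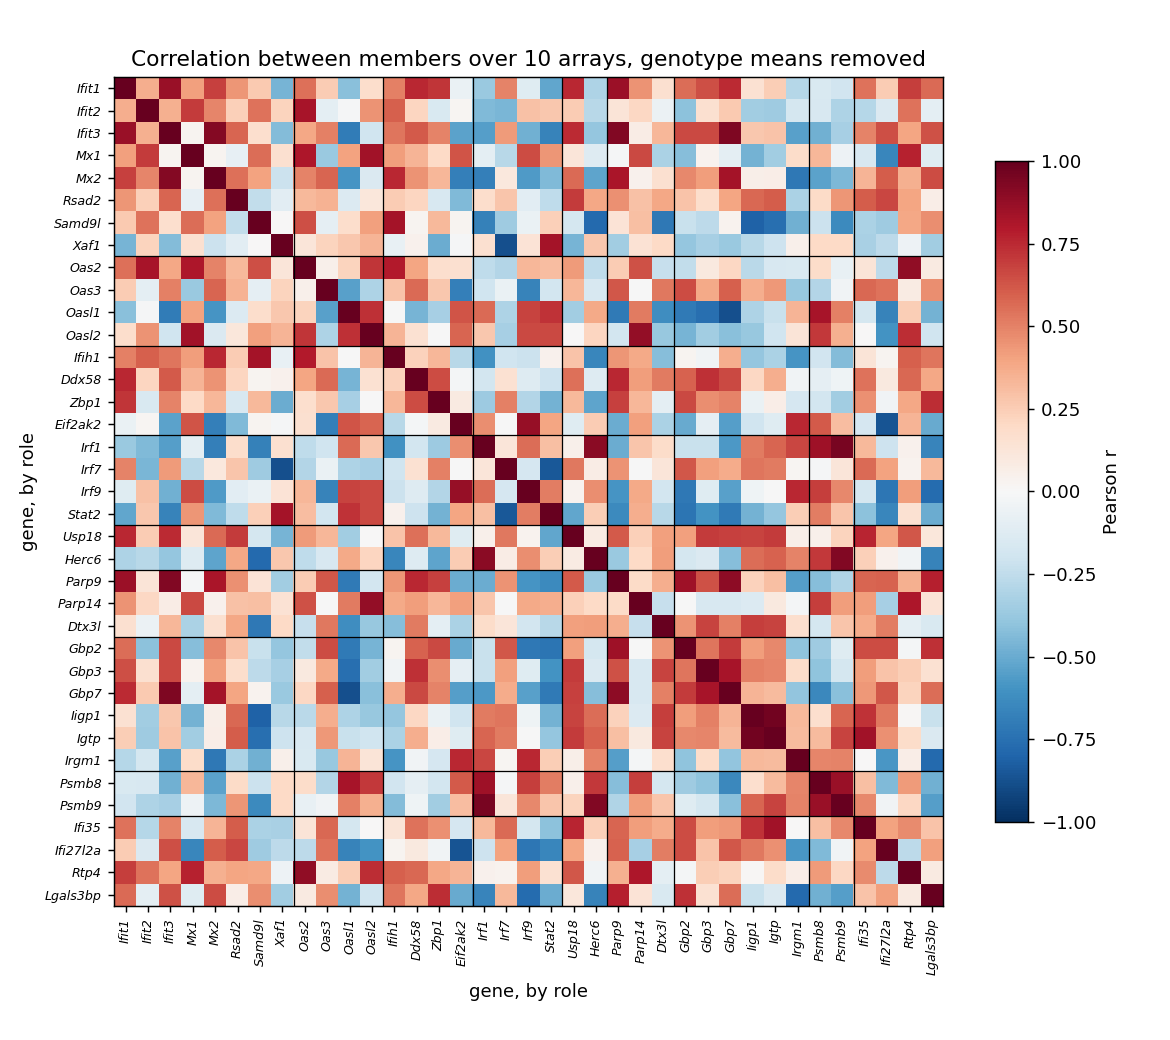
Pearson correlation between each pair of the 37 genes over 10 arrays after removal of genotype means, from blue (-1) to red (1), with genes in order of role and lines between roles. Ifit1, Ifit3, Parp9 and Gbp7 form red cells with each other, while Oasl1 against Gbp7 and Xaf1 against Irf7 are the deepest blue.

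The gene outside the set whose values tracked the mean of the 32 brighter genes most closely over the 10 arrays, genotype means removed, was Glp1r (r = 0.95). It was followed by 1700034P13Rik, Pbsn, Ttc9c, Pfkfb2, Timm29, Iqsec3, Psmb10, A830052D11Rik and Oog1, the last of them at 0.925. Of these 10 only Psmb10, the third immunoproteasome subunit, belonged to the pathway lists, and it was also the only 1 of the 78 measured pathway genes among the 100 closest of 17060 genes ranked. Most of them were dim. The means of Glp1r (3.25), 1700034P13Rik (3.20), Pbsn (3.15), Pfkfb2 (4.38), Iqsec3 (3.89), A830052D11Rik (4.13) and Oog1 (3.09) did not exceed the highest control mean of 4.82.

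The interferon pathway itself was read from 91 listed genes, 78 of them measured. The ligands Ifnb1, Ifna1, Ifna2, Ifna4, Ifna5 and Ifng had group means of 3.30 to 3.55 in every genotype, at the level of the control probe sets, so a difference in them was not detectable here. No receptor chain was called. Ifnar1 read 7.68 ± 0.33 (SD, n = 4) in WT, 7.82 ± 0.085 (SD, n = 3) in ASC-/- and 7.33 ± 0.10 (SD, n = 3) in Casp1-/-, and Ifnar2 10.79, 10.80 and 10.67. Ifngr1 read 9.59, 9.63 and 9.57, Ifngr2 7.67, 7.69 and 7.07, Il10rb 10.27, 10.36 and 9.50, and Ifnlr1 lay at background. Of the 6 receptor genes all were below WT in Casp1-/- and all above it in ASC-/-, where 42.7% and 48.3% of all genes were below. Limma called 0 of 6 in either. At an unadjusted p under 0.05, 2 were lower in Casp1-/- (11.3% of all genes).

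In ASC-/- against WT, 0 of the 78 pathway genes were called by limma, where 0.0175% of all genes were called in each direction. At an unadjusted p under 0.05, 4 were lower (1.03% of all genes) and 0 higher (0.971%). Of the 78, 41 were below 0, where 48.3% of all genes were. In Casp1-/- 3 of the 78 pathway genes rose and 7 fell, where 4.31% and 3.86% of all genes did. The count that rose was thus near the background. Among signalling genes Ptpn6, a phosphatase that restrains Janus kinase signalling, fell by 1.43 (limma, adjusted p = 0.0407) and Ptpn11, a related phosphatase, rose by 0.55 (adjusted p = 0.0477). Among genes that sense nucleic acid and induce interferon, Irf5 fell by 1.51 (limma, adjusted p = 0.0365) and Tlr7 by 1.16 (adjusted p = 0.0459). Among other interferon-induced genes, Slfn2 fell by 1.07 and Trim25 by 1.00 (limma, adjusted p = 0.0130 and 0.0200), while Tdrd7 rose by 0.60 and Cd274, the checkpoint ligand PD-L1, by 0.91 (adjusted p = 0.0216 and 0.0222). Ptpn6, Irf5, Tlr7, Slfn2 and Trim25 each read lowest of the WT arrays on WT replicate 1, the WT array in the high spike-in set. Irf5 read 7.24 there, 8.16 to 9.10 on the other WT arrays and 6.47 to 6.89 in Casp1-/-. Of those that rose, Cd274 read highest in WT on that array, while Ptpn11 and Tdrd7 did not. The part of the spike-in split in these differences was not tested. In ASC-/- against Casp1-/-, 6 pathway genes were higher and 2 lower, where 3.85% and 3.54% of all genes were. The 2 lower were Cd274 (-1.26) and Tdrd7 (-0.52). Beside these stand the macrophage markers, of which 6 of 12 fell in Casp1-/- with a median of -1.54 and limma called 0 of 12 in ASC-/- (with 1 higher and 1 lower where p was under 0.05 before adjustment). Their part in any of these differences was not tested. In ASC-/- the macrophage markers had a median of 0.17, with 9 of 12 above WT, and their array means lay within the range of the WT arrays.

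Genes with the response element core in their window and those without it can be set side by side. The 13 with it had medians of -0.24 in ASC-/- against WT, 0.073 in Casp1-/- against WT and -0.26 between the null genotypes, and the 14 without it -0.16, -0.14 and -0.038. In ASC-/- 13 of 13 and 13 of 14 were below 0, and in Casp1-/- 6 of 13 and 10 of 14 were. These medians were not tested against each other. Of 40 genes of the set placed on 15 chromosomes, 17 had another within 20 genes, in the Ifit, Gbp, Oas and Oasl clusters, the Parp9, Dtx3l and Parp14 cluster and the Psmb8, Psmb9 and Tap1 cluster.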

How the data were processed

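RNA of 10 mice was read on Affymetrix HT_MG-430 PM arrays, 1 per mouse, the labels naming each a separate animal. The authors deposited log2 signals. Per the submitters' processing notes, these come from RMA, which forces a common distribution on all arrays and compresses small changes near background. Version and genome build are not given in the sources used here. Array medians were 4.29 to 4.36, correlations between arrays 0.964 to 0.995, and the number of arrays limits the precision.

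Of 45141 probe sets, 104 were controls, 28898 had 1 symbol, 551 several and 15588 none. For each gene the probe set of highest mean was kept (17097 genes). The model, in limma 3.58.1 (R 4.3.3), was fitted to all of them with 3 genotype means and 7 residual degrees of freedom, two-sided, with Benjamini-Hochberg adjustment over all genes and a threshold of 0.05. SD is over arrays and SE that of a fitted difference. No test was made over the set as a whole. On simulated data for 17097 genes, with noise independent between genes, the fit was checked on planted changes. It found 79 of 100 genes changed by 1 log2 unit and 92 of 100 changed by 2 in ASC-/- minus WT. In Casp1-/- minus WT it found 79 and 93, and 7 unchanged genes were called in each. The simulation held far more changed genes than the 3 higher and 3 lower called in ASC-/- against WT. Members there differed by -0.64 to 0.051, so these rates do not say how readily such differences would be called.

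The members and lists were chosen with earlier results of these data known. All members are named. Values on every array are given for members past the threshold in a contrast and for the 3 with the smallest p in each. Genes of the pathway lists are named where past it in Casp1-/- against WT, at most 4 a list by smallest p, with the ligands and receptors. In ASC-/- against Casp1-/- the 6 higher ones are only counted, and the 2 lower ones are named. Alternatives were quantile normalization, median centring, a filter on dim genes, means over the probe sets of a gene, array weights, robust and trended empirical Bayes estimation, fitting the compared groups alone, a block by replicate number or by the spike-in split (a mean above 7), and each array left out. Leaving out the arrays with high epididymis markers was added after seeing the data. Gene order and promoter sequences came from RefSeq on GRCm38.p6.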

Additional observations from a re-analysis of the deposited data

Results flagged for a closer look

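Ifi27l2a, an interferon-induced gene, read 12.93 on WT replicate 3, against 13.45 to 13.51 on the other WT arrays. The gap to the nearest of them was 0.90 of the range of the group, above Dixon's 95% critical value for 4 samples. Of 38 series of WT values tested, chance alone flags about 1 in 20.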

How the results depend on the processing

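In ASC-/- against WT, limma called 0 of the genes under every alternative run (7 lower and 0 higher at an unadjusted p under 0.05 with all arrays), and the median stayed between -0.22 and -0.17 with each array left out. In Casp1-/- against WT, calls lower numbered 1 with means over probe sets, with the trended and robust step and with only the compared groups, 4 with array weights, and 0 with the replicate block or the spike-in split as a block (0 to 2 with each array left out). Calls higher were 3 with array weights and 3 without the arrays high in epididymis markers (0 to 3 with each array left out). Without the arrays high in epididymis markers, the calls lower were Oasl1, Oasl2 and Stat2. The median was -0.22 with the spike-in block (-0.10 to -0.044 with each array left out). In ASC-/- against Casp1-/-, calls higher were 0 with the replicate block, the spike-in block or the epididymis arrays left out (0 to 1 with each array left out). Calls lower were 5 with array weights or only the compared groups and 0 with either block (0 to 4 with each array left out). The median was 0.041 with the spike-in block and -0.24 without the epididymis arrays (-0.24 to -0.085 with each array left out). The mean of the genes in WT, ASC-/- and Casp1-/- was 8.03, 7.81 and 7.94 without dim genes and 7.04, 6.84 and 6.94 over all probe sets, since those settings average other values. Among the 8 genes given array by array, signs turned for Xaf1 in Casp1-/- against WT (0.040 over probe sets, 0.028 with the spike-in block), Gbp3 there (-0.081 with the spike-in block) and Oas2 between the null genotypes (0.10 with the spike-in block). Over all 37 genes, the spike-in block kept the sign of 34 in ASC-/- against WT, 28 in Casp1-/- against WT and 25 between the null genotypes, where Usp18 turned from -0.45 to 0.45, Ifit1 from -0.30 to 0.39 and Rtp4 from -0.12 to 0.41. The cause was not tested. Same-numbered arrays did not deviate together (r from -0.26 to 0.19 over 9 pairs, against -0.38 to 0.39 over 24 pairs with different numbers). The values thus gave no sign that the numbers pair the mice, though so few pairs cannot exclude it. With the replicate block, the calls in Casp1-/- against WT over all genes dropped from 737 higher and 660 lower to 8 and 1. Signals near the control probe sets limit what Mx1, Mx2, Oas3, Eif2ak2 and Herc6 can show.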
